A study of Mus musculus with 8 samples.

Results

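The chromatin of an eribulin-resistant mouse breast cancer line, PB3-ERI-R, was set against that of the line the labels name as its parent, PB3-Parental, with 4 of the 8 ATAC-seq libraries of the series. PB3 is a mouse breast cancer cell line labelled Er-/Pr-/Her2-, that is, without the estrogen, progesterone and Her2 receptors by which breast tumours are classed. The 2 libraries of PB3-Parental came from untreated cells, and the 2 of PB3-ERI-R from the resistant derivative, whose treatment label names eribulin (spelled Erubilin). The labels give 300, 500 and 800 nM as the concentrations used to obtain resistant clones, and 1 medium for all lines. They do not say whether PB3-ERI-R is 1 clone or a mixture, whether the drug was present at harvest, or whether the libraries of a line came from separate cultures. The p-values therefore measure only the spread between libraries of a line, which may be technical. That spread was estimated over all 8 libraries of the series. With a single resistant derivative, the effects of the drug, of selection and of the derived line itself cannot be told apart.

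In ATAC-seq a transposase inserts adapters where DNA is not covered by nucleosomes, so the reads that fall in a region count how open it is. Active promoters and enhancers are open, and a region's openness is not the expression of the gene beside it. Eribulin caps the growing ends of microtubules and stops cells in mitosis. Epithelial cells adhere through cadherins, claudins and desmosomes under factors such as Grhl2, Ovol2 and the splicing regulator Esrp1. In the epithelial-mesenchymal transition (EMT), factors of the Zeb, Snai and Twist families close that program and cells turn to collagens, lysyl oxidases and vimentin, while microRNAs of the miR-200 family repress Zeb1 and Zeb2 in return. The series set out to ask whether treatment can return mesenchymal-like breast cancer cells toward an epithelial state through their chromatin.

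Counts over 57417 consensus regions, places where at least 1 line of the series had a peak, came to 15644934 and 14173295 in the PB3-Parental libraries and to 13419873 and 10521964 in those of PB3-ERI-R. Values are given as CPM, read counts put on a common library size with TMM scaling factors, in the order replicate 1 and replicate 2, and 3 counts correspond to 0.181 to 0.332 CPM in these libraries. A gene locus is the sum over the regions inside a protein-coding gene or within 50 kb of it, with each region given to its nearest gene. Log2 fold changes are PB3-ERI-R over PB3-Parental with their SE from edgeR's quasi-likelihood fit, and a region or locus was called gained or lost at a Benjamini-Hochberg adjusted p under 0.05 over all those tested.

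PB3-ERI-R stood apart from every other line. Its libraries had a Pearson's r of 0.133 to 0.23 with those of the other 3 lines over the log2 CPM of all regions (a description of regions that share libraries), against 0.977 between its own replicates and 0.948 to 0.982 among the other 3 lines. Whole stretches of chromosomes also moved together: of 268 stretches of 10 Mb, 14 had a median log2 change of at least 1 and 16 of at most -1, from -2.43 on chromosome 3 (from 150 Mb) to 3.14 on chromosome 5 (from 150 Mb). These 30 stretches held 4295 regions, 7.48% of those tested. More open chromatin at each copy, more cells with open chromatin and more DNA copies cannot be told apart in these counts. A fit in which the median of each stretch was subtracted (window offsets) is therefore given wherever it ended a call, turned its direction or moved a value by over 1.5 times. Of the tested regions, 33 had 0 counts in both PB3-Parental libraries and 25 had 0 in both PB3-ERI-R libraries. The 4 regions of the neighbouring tumour suppressor loci Cdkn2a and Cdkn2b on chromosome 4 were among the first, and had 0 counts in the paclitaxel- and vinorelbine-resistant lines too. PB3-ERI-R had 816 counts at Cdkn2a and 1547 at Cdkn2b. Set against a floor of 3 counts over both PB3-Parental libraries, the loci were at least 435-fold and at least 824-fold higher in PB3-ERI-R. The 3 regions on the Y chromosome were also higher in PB3-ERI-R, with log2 changes of 4.64 to 5.31. The labels give PB3 as the origin of all lines, and whether PB3-ERI-R and PB3-Parental descend from the same stock of cells was not tested here, so each gain and loss below is a difference between these lines.

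Most of the measured chromatin differed between the lines. Of 57415 regions tested, 20338 were gained (35.4%) and 21582 lost (37.6%) in PB3-ERI-R, 41920 in all (73.0%), and 28400 changed by more than 2-fold when tested against that size (49.5%), 11867 of them gained and 16533 lost. Gained regions had a median log2 change of 1.76 and lost regions one of -2.54, and 3468 gained and 1312 lost regions differed by at least 5 on the log2 scale. Of 15039 gene loci, 4192 were gained (27.9%) and 4562 lost (30.3%), 8754 in all (58.2%). With window offsets 3594 loci were gained (23.9%) and 4933 lost (32.8%). The median locus lay at a log2 change of -0.00, or at -0.12 with window offsets. A list of genes has to be read against these shares, since a locus picked at hand was more often called than not.

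Calls followed the peaks that the authors deposited for each line, which is no independent support, since both come from the same libraries. Of 11166 regions with a peak in PB3-ERI-R only, 97.3% were gained and 1 region was lost. Of 18187 with a peak in PB3-Parental only, 79.6% were lost and 214 regions gained. The 18895 regions with a peak in both lines were gained in 45.7% and lost in 8.57% of cases. A further 9167 regions had a peak in neither line's list, and of these 625 were gained and 5484 (59.8%) lost in PB3-ERI-R. The surplus of regions called lost over those called gained rests on this class, so it depends on which lines' peaks define the regions.

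Regions beside microRNAs known to hold epithelial cells in their state opened strongly. The microRNAs are shown first because their seeds, bases 2 to 8 (in capitals), decide which messages they bind. The mature sequences, from RefSeq (GRCm38.p6), fall into a pair of seed groups for the miR-200 family, followed by miR-205 and miR-203 with seeds of their own.

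mmu-miR-200a-3p: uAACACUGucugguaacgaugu
mmu-miR-141-3p: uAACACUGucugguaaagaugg
mmu-miR-200b-3p: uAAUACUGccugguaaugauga
mmu-miR-200c-3p: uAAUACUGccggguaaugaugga
mmu-miR-429-3p: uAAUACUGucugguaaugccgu
mmu-miR-205-5p: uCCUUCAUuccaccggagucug
mmu-miR-203-3p: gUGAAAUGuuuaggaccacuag

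The miR-200 family is made from a pair of clusters, and each had a region that opened in PB3-ERI-R. Beside miR-200b, miR-200a and miR-429, the region chr4:156059332-156060109 (mm10), 3.58 kb upstream of the miR-200b hairpin and between genes, had 2.11 and 1.06 CPM in PB3-Parental and 77.8 and 60 CPM in PB3-ERI-R. The change was 5.42 ± 0.32 (adjusted p = 4.18e-09), or 6.12 with window offsets. The region chr6:124718039-124719374 holds the miR-200c hairpin and lies 54 bp from that of miR-141. It had 1.69 and 1.66 CPM against 60.5 and 44.4 CPM, a change of 4.96 ± 0.27 (adjusted p = 2.99e-09). In both clusters the lowest PB3-ERI-R library exceeded the highest PB3-Parental library by far more than the replicates differed.

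Near miR-205, a microRNA of basal epithelium that also represses Zeb1 and Zeb2, the region chr1:193509963-193510384 had 0.0602 and 0.333 CPM in PB3-Parental and 57.5 and 43.2 CPM in PB3-ERI-R. Its change was 7.99 ± 0.47 (adjusted p = 4.16e-09), 7.20 without PB3-Parental replicate 1 and 9.54 without PB3-Parental replicate 2, since PB3-Parental was close to 0. It lay 2.43 kb from the hairpin. The region chr12:112130523-112130864, 16 bp from the hairpin of the epidermal microRNA miR-203, had 3.07 and 5.66 CPM against 26.8 and 23.4 CPM (2.53 ± 0.33, adjusted p = 6.86e-06). The cluster of miR-182, miR-183 and miR-96 had 64.2 and 62.8 CPM against 129 and 118 CPM, a smaller gain of 0.96 ± 0.12 (adjusted p = 6.54e-06).

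The microRNAs whose regions closed include those of mesenchymal cells, miR-199a and miR-214, and the p53 targets miR-34b and miR-34c. Their sequences are shown with that of miR-34a, which shares its seed with miR-34b.

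mmu-miR-199a-5p: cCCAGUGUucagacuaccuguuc
mmu-miR-214-3p: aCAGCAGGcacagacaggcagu
mmu-miR-34b-5p: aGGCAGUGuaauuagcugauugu
mmu-miR-34a-5p: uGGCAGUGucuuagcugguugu

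The region chr1:162215655-162216127 lies inside Dnm3, 1.69 kb from the miR-199a-2 hairpin. It had 30.3 and 20 CPM in PB3-Parental and 2.79 and 3.32 CPM in PB3-ERI-R (-3.05 ± 0.27, adjusted p = 1.19e-07). A second region of that stretch, 2.17 kb from the miR-214 hairpin, had 11 and 8.72 CPM against 0.0929 and 0.443 CPM, a change of -5.24 ± 0.50 that became -6.62 without PB3-ERI-R replicate 2 and -4.45 without PB3-ERI-R replicate 1. The pair of regions at miR-199a-1, inside Dnm2, was lost with changes of -3.59 and -3.57. At miR-34b and miR-34c the region chr9:51103057-51103603, which overlaps both hairpins, had 8.37 and 10.8 CPM in PB3-Parental and 0.279 and 0.775 CPM in PB3-ERI-R (-4.21 ± 0.41, adjusted p = 3.86e-07). It was -5.07 without PB3-ERI-R replicate 2 and -3.61 without PB3-ERI-R replicate 1.

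Members of 1 seed group did not always move alike. The 3 regions near miR-34a changed by 1.94, 3.79 and -1.57, all called, so gained and lost regions stood within 10 kb of 1 hairpin. The second of these had 0.241 and 0.865 CPM in PB3-Parental and moved to 3.11 without PB3-Parental replicate 1 and 4.93 without PB3-Parental replicate 2, and with window offsets the 3 stood at 2.64, 4.49 and -0.87. Regions near miR-10a (-3.61), miR-155 (-2.92) and miR-375 (-2.59), microRNAs of the Hox cluster, of immune cells and of endocrine and luminal cells, were lost. The value for miR-10a ranged from -5.66 to -2.70, without PB3-ERI-R replicate 2 and replicate 1. Around miR-21a, an oncogenic microRNA, the 4 called regions were lost (-0.42 to -2.27) and the other region was uncalled (-0.02). The weakest of them was no longer called without PB3-ERI-R replicate 2 (-0.18), and the strongest stood at -3.03 without PB3-ERI-R replicate 1.

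In all, 25 of 28 microRNAs matched in the RefSeq table (of 34 listed) had a region within 10 kb of the hairpin. Of those 33 regions 13 were gained, 15 lost and 5 uncalled, set against the 35.4% gained and 37.6% lost over all regions. Large gains were not restricted to epithelial microRNAs. A region 9.14 kb from miR-9-1, a neural microRNA, had 0.12 and 0.266 CPM in PB3-Parental and 15.1 and 14.8 CPM in PB3-ERI-R (6.25 ± 0.41, adjusted p = 8.56e-09, with 5.76 and 6.87 without PB3-Parental replicate 1 and replicate 2), a larger change than at either miR-200 cluster. With window offsets it stood at 5.99, under the 6.12 of the region beside miR-200a, miR-200b and miR-429. Another region, 4.95 kb from the miR-9-1 hairpin, was lost (-4.84, with -5.86 and -4.17 without PB3-ERI-R replicate 2 and replicate 1).

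Loci of genes that join epithelial cells opened as a group. Of 35 tested adhesion and junction loci, 26 were gained (74.3%) and 3 lost (8.57%), against 27.9% and 30.3% of all loci, and their median log2 change was 1.07. With window offsets 24 were gained and 3 lost. Their summed CPM was 2356 and 2221 in PB3-Parental and 4297 and 4001 in PB3-ERI-R. The members and lists here were chosen with earlier results of these data known, so their direction is a description. Loci that are named below without being among the smallest adjusted p of their list or the largest changes were chosen after their values were seen.

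Several of these loci were near silent in PB3-Parental. Prss8, which encodes the membrane protease prostasin, had 0.215 and 0.466 CPM in PB3-Parental and 28.1 and 25.4 CPM in PB3-ERI-R (6.28 ± 0.42, adjusted p = 5.66e-07, with 5.82 without PB3-Parental replicate 1 and 6.90 without PB3-Parental replicate 2). Rab25, a small GTPase of apical recycling, had 0.43 and 0.621 CPM against 26.8 and 27.2 CPM (5.67 ± 0.36, adjusted p = 4.16e-07). Cldn7, a claudin of tight junctions, had 0.716 and 1.24 CPM against 18.4 and 20.9 CPM (4.33 ± 0.31, adjusted p = 9.5e-07). Each of these loci rests on 1 region, and in each the PB3-ERI-R libraries lay over 10 times above the higher PB3-Parental library.

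Other junction loci were open in PB3-Parental and opened further. Spint2, an inhibitor of the serine proteases matriptase and prostasin, had 15.5 and 18.7 CPM in PB3-Parental and 140 and 134 CPM in PB3-ERI-R (3.01 ± 0.17, adjusted p = 2.28e-07). Marveld2, the tricellulin of junctions between 3 cells, had 12 and 14.1 CPM against 64.5 and 68.9 CPM (2.35 ± 0.16, adjusted p = 7.67e-07). Further gains were Mal2 (2.86), Spint1, Ap1m2 (1.74), Marveld3 (1.41), Lsr (1.38) and Cgn (1.31). Llgl2, a polarity gene on chromosome 11, was gained by 2.36 and by 0.97 with window offsets, and Cldn3 on chromosome 5 by 1.37 and 0.57. The desmosomal plakin Evpl, also on chromosome 11, was gained by 1.10 but not called with window offsets (-0.29), and neither was Cdh3 (0.45, then 0.25). Dsg2 on chromosome 18, a desmosomal cadherin, was gained by 1.07 and by 2.04 with window offsets.

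Cldn1 went the other way. This claudin locus had 66.7 and 64.4 CPM in PB3-Parental and 33.1 and 41.4 CPM in PB3-ERI-R (-0.82 ± 0.14, adjusted p = 0.000437), and Pkp2, a desmosomal plaque gene, was lost by 0.65 ± 0.12 on the log2 scale. As summed loci, Cldn4, Pkp1, Prom2, Pard6b, Dsc2 and Tjp3 were uncalled, with log2 changes from -0.27 to 0.55. With window offsets the summed locus of Cldn4 was called lost (-0.61) and that of Dsc2 gained (0.69). The start regions of Prom2 and Cldn4 were nevertheless gained. The region over the Prom2 start had 1.38 and 1.2 CPM in PB3-Parental and 37.6 and 22.4 CPM in PB3-ERI-R. The region over the Cldn4 start had 8.25 and 8.58 CPM against 51.7 and 43.3 CPM.

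At several junction genes the promoter itself opened. Promoter windows are shown for 4 gained genes, with CACCTG and its reverse CAGGTG in capitals, the letters that the EMT repressors Zeb1 and Snai1 are known to bind. The promoter of Mmp3, a matrix metalloproteinase whose locus was lost, is shown beside them with TGANTCA, the letters of AP-1, in capitals. Each window runs from 150 bases before to 30 bases after the RefSeq start (GRCm38.p6), 5′ to 3′ on the gene's strand.

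Rab25, chr3:88548250-88548429, minus strand: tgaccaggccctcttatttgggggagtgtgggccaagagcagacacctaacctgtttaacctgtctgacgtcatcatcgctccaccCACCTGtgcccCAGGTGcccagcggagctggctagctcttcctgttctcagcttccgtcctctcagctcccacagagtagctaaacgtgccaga
Cldn7, chr11:69965271-69965450, plus strand: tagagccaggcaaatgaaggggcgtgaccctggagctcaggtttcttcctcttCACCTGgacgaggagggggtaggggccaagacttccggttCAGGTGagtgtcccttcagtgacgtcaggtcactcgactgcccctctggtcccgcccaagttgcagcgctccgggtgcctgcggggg
Ap1m2, chr9:21312304-21312483, minus strand: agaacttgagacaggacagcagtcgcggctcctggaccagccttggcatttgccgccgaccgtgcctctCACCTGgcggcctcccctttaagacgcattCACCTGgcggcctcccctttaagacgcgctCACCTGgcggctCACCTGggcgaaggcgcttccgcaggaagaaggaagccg
Spint2, chr7:29281948-29282127, minus strand: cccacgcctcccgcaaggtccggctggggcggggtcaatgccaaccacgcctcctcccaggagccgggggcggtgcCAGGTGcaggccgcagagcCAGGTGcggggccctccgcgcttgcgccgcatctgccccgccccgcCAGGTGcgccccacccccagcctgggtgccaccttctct
Mmp3, chr9:7445672-7445851, plus strand: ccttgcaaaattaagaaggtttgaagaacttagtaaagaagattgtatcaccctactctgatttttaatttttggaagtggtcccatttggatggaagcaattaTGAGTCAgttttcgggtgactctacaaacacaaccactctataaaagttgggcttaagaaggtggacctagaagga

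The letters occur 2 times in the windows of Rab25 and Cldn7, 4 times in that of Ap1m2 and 3 times in that of Spint2. The region over the Rab25 start had 0.361 and 0.532 CPM in PB3-Parental and 27.9 and 27.8 CPM in PB3-ERI-R (5.95 ± 0.37, adjusted p = 6.52e-09). The region over the start of Ap1m2, a clathrin adaptor subunit of polarised cells, had 0.361 and 0.2 CPM against 21.8 and 21.3 CPM (6.21 ± 0.40, adjusted p = 7.87e-09), a larger change than that of the summed locus. Those of Cldn7 (4.60 ± 0.33) and Spint2 (2.21 ± 0.20) opened too, and the region over the Mmp3 start was lost, from 9.33 and 13 CPM to 3.25 and 3.21 CPM (-1.78 ± 0.28, adjusted p = 3.7e-05). A match of letters is a description and not a bound site. The windows shown are examples and do not stand for all gained promoters. Windows of the same length at Spint1, F11r and Lsr, whose start regions were gained too, hold TGANTCA. Those at Cldn3, Prom2 and Spint1, also gained, hold CACCTG 0 times on either strand.

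Over the 300-base promoter windows of the junction list, 17 genes had a region in the window. Of these 13 were gained by over 2-fold, 11 of which hold CACCTG on either strand and 4 TGANTCA, and 0 were lost by over 2-fold. Of 16 mesenchymal and matrix genes with such a region, 2 were gained and 5 lost by over 2-fold, and of the 5 lost 0 hold CACCTG and 1 holds TGANTCA. Of all 10558 promoter windows with a region, 1020 were gained and 314 lost by over 2-fold. The shares of these that hold the letters follow further down.

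Keratins are the filament proteins of epithelia. Of 10 tested loci 6 were gained (60%) and 1 lost (10%), against 27.9% and 30.3% of all loci. Krt6a, a keratin of activated and stratified epithelium, had 1.58 and 1.86 CPM in PB3-Parental and 82.4 and 73.2 CPM in PB3-ERI-R (5.50 ± 0.29, adjusted p = 1.69e-07). Krt7 was gained by 2.58 ± 0.43, Krt19 by 1.04 ± 0.22 and Krt23 by 1.01 ± 0.18. Krt8 had 189 and 120 CPM against 197 and 155 CPM (0.19 ± 0.28, adjusted p = 0.594), and its partner Krt18 had 147 and 103 CPM against 106 and 107 CPM (-0.23 ± 0.23, adjusted p = 0.427). This pair of simple-epithelium keratins was thus open in PB3-Parental already. Krt20, an intestinal keratin, was lost, from 3.79 and 1.24 CPM to 0.179 and 0.108 CPM (-4.04 ± 0.80, adjusted p = 0.00133, with -4.61 and -3.01 without PB3-Parental replicate 2 and replicate 1).

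The transcription and splicing factors of epithelia gave the largest median of the epithelial lists, 1.67 over 21 tested loci, with 15 gained and 5 lost, also with window offsets. Tfap2c, an AP-2 factor of mammary luminal cells, had 16.2 and 21.8 CPM in PB3-Parental and 355 and 278 CPM in PB3-ERI-R (4.06 ± 0.19, adjusted p = 9.27e-08), with 7 of 7 regions gained. Ovol2, which represses Zeb1, had 1.22 and 1.55 CPM against 21.8 and 19.8 CPM (3.91 ± 0.28, adjusted p = 9.64e-07).

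Grhl2, the grainyhead factor that opens epithelial enhancers, had 23.6 and 18.2 CPM in PB3-Parental and 299 and 270 CPM in PB3-ERI-R (3.77 ± 0.19, adjusted p = 1.3e-07). Its relative Grhl1 was gained by 1.67 ± 0.12, and by 0.99 with window offsets. Elf3 (2.99 ± 0.18), Ovol1 (2.60 ± 0.22) and Esrp2 (1.76 ± 0.12) were gained too, and so, by less, were Trp63 (1.20 ± 0.16) and Tfap2a (0.59 ± 0.09). Foxa1 was gained by 0.81 and uncalled with window offsets.

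The lost loci of that list include luminal factors. Klf4, a zinc-finger factor of differentiated epithelium, had 203 and 196 CPM in PB3-Parental and 53.1 and 59.7 CPM in PB3-ERI-R (-1.83 ± 0.10, adjusted p = 2.24e-07). Spdef (-2.11), Gata3 (-1.04) and Rbm47 (-0.66) were lost too. Klf5 was uncalled (0.20), and gained with window offsets (2.21), since its stretch of chromosome 14 was low in PB3-ERI-R.

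**Figure D1:**
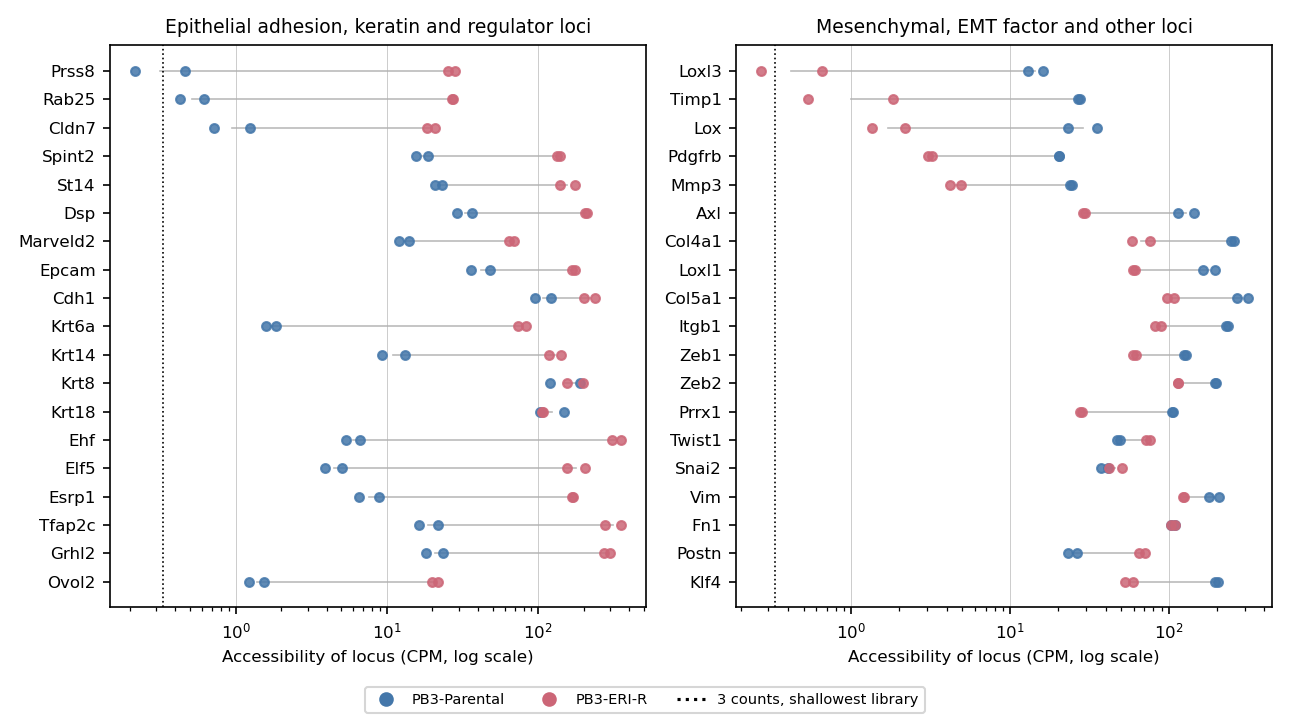
Accessibility of 38 loci in CPM (log axis), epithelial on the left, mesenchymal, EMT factor and other loci on the right. Dots are single libraries, grey lines join the geometric means of the lines, and the dotted line marks 3 counts in the shallowest library. Prss8, Rab25, Cldn7, Krt6a and Ovol2 rise from under 2 CPM to 18.4 CPM or more in PB3-ERI-R, Krt8 and Krt18 overlap, and Loxl3 and Timp1 fall to under 2 CPM.

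Matrix and mesenchymal loci closed. Of 42 tested, 28 were lost (66.7%) and 3 gained (7.14%), with a median log2 change of -1.03, and the counts were the same with window offsets. Their summed CPM was 5356 and 4970 in PB3-Parental and 3220 and 3045 in PB3-ERI-R. Loxl3, a lysyl oxidase that cross-links matrix, had 12.9 and 16.1 CPM in PB3-Parental and 0.268 and 0.65 CPM in PB3-ERI-R (-5.00 ± 0.37, adjusted p = 1.16e-06, with -5.69 without PB3-ERI-R replicate 2 and -4.45 without PB3-ERI-R replicate 1). Timp1, a metalloproteinase inhibitor on the X chromosome, had 26.6 and 27.4 CPM against 0.536 and 1.84 CPM (-4.56 ± 0.34, adjusted p = 1.09e-06). Its value was -5.61 without PB3-ERI-R replicate 2 and -3.86 without PB3-ERI-R replicate 1. Col4a1, a basement membrane collagen, had 256 and 248 CPM against 58.9 and 75.9 CPM (-1.90 ± 0.13, adjusted p = 6.1e-07), with 11 of 14 regions lost and 1 gained.

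The fibrillar collagens did not all move alike. Col5a1 was lost by 1.51 ± 0.15 on the log2 scale, with 13 of 15 regions lost, and Col3a1 had a change of -2.95 ± 0.31. Col1a2 had one of -1.21 ± 0.22, whereas Col1a1 had 112 and 105 CPM against 116 and 101 CPM (0.01 ± 0.12, adjusted p = 0.964). Col5a2 was gained, from 0.501 and 0.776 CPM to 6.97 and 9.75 CPM (3.70 ± 0.46, adjusted p = 4.45e-05), and so were Postn, from 23.1 and 26.2 CPM to 71.1 and 64.5 CPM (1.46 ± 0.14, adjusted p = 6.98e-06), and Timp3 (0.62 ± 0.13). At Postn, a matricellular protein, 3 regions were gained and 3 lost, and the regions within 1 kb of the gene's ends had a change of -2.96.

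Mmp3 (-2.42 ± 0.21), Pdgfrb (-2.69 ± 0.26), Cd44 (-1.19 ± 0.13) and N-cadherin, Cdh2 (-0.76 ± 0.11), were lost. Itgb1, the common beta chain of matrix integrins, had 235 and 228 CPM in PB3-Parental and 89.4 and 81.8 CPM in PB3-ERI-R (-1.43 ± 0.10, adjusted p = 7.46e-07). Its regions at the gene's ends were uncalled (-0.14), so the loss lay elsewhere in the locus. Loxl1 was lost by 1.57 on the log2 scale with a value of -5.28 at its gene ends, and Loxl2 by 1.11, uncalled with window offsets (-0.30). Fn1, fibronectin, had 103 and 110 CPM against 110 and 103 CPM (0.00 ± 0.12, adjusted p = 0.983), and -0.40 over its gene ends alone (adjusted p = 0.0142).

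EMT transcription factors split. Of 18 tested, 8 were gained (44.4%) and 6 lost (33.3%), and 7 and 6 with window offsets. Zeb2 had 195 and 199 CPM in PB3-Parental and 114 and 114 CPM in PB3-ERI-R (-0.79 ± 0.09, adjusted p = 2.62e-05), and Tcf4 had 321 and 321 CPM against 144 and 158 CPM (-1.09 ± 0.11, adjusted p = 9.63e-06). Twist1 had 49.3 and 47.4 CPM against 76.5 and 71.9 CPM, a gain of 0.62 ± 0.11 (adjusted p = 0.000716), while its relative Twist2 was lost by 0.68 ± 0.17 on the log2 scale. Snai1 had 270 and 234 CPM against 304 and 270 CPM (0.19 ± 0.12, adjusted p = 0.215) and Snai2 had 37.2 and 41.3 CPM against 50.4 and 41.8 CPM (0.23 ± 0.13, adjusted p = 0.153), so neither was called. Foxc1, a forkhead factor, was gained by 1.02 ± 0.11 through regions away from the gene's ends (0.04 there, uncalled), and Id2 by 1.38 ± 0.15, or 0.70 with window offsets.

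A summed locus often hides regions that moved in opposite directions. Of 6850 loci with 2 or more called regions, 1564 had gained regions only (22.8%), 1354 lost regions only (19.8%) and 3932 both (57.4%). Of 6285 uncalled loci 3707 held at least 1 called region (59%), and 1720 of them held gained and lost regions. Among the 8754 called loci 2212 held regions of both directions (25.3%). Of loci named here, Pkp2 and Rbm47 were lost as sums while their regions within 1 kb of a gene end were gained (0.68 and 1.26). The gene-end regions of the called loci Cgn, Cldn1, Twist1, Bmpr2, Lgr4, Fzd7, Pdgfc, Erbb2, Erbb3, Stk4, Ankrd1, Dll1, Notch1, Hoxa3, Sox6, Abcc1, Slco2a1, Tbcd, Kif13b, Mki67, Mycn, Cflar and Esr1 were uncalled, with values from -0.52 to 0.42.

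Vim, the mesenchymal filament vimentin, is such a locus. Its start region chr2:13573370-13574881 had 130 and 107 CPM in PB3-Parental and 3.07 and 4.32 CPM in PB3-ERI-R (-5.02 ± 0.20, adjusted p = 7.44e-10). Inside the gene, chr2:13575941-13576414 had 12.6 and 10.8 CPM against 69.9 and 68.3 CPM (2.56 ± 0.19, adjusted p = 3.16e-08). A region 4984 bp upstream had 0.181 and 0.0665 CPM against 24 and 19.7 CPM, with 4 counts in PB3-Parental in all (7.35 ± 0.42, adjusted p = 3.75e-09, and 8.19 without PB3-Parental replicate 1). The promoter of Vim thus closed while other parts of its locus opened, and the summed locus changed by -0.65 only.

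Grhl2 held 11 regions, 9 gained by 0.67 to 7.27 and 2 lost, the stronger of them by 2.42 on the log2 scale. The strongest, chr15:37232791-37233448 inside the gene, had 0.482 and 0.466 CPM in PB3-Parental and 76.8 and 71.6 CPM in PB3-ERI-R, and 4 gained regions lay outside the gene, between 10989 and 39666 bp from it. The weakest of the 9 was uncalled with window offsets (0.58) and in 3 of the 4 fits that left out 1 library. All 5 regions of Esrp1, on chromosome 4, were gained by 3.84 to 6.55, and the value of 1 of them moved from 6.37 to 7.40 without PB3-Parental replicate 2. At E-cadherin, Cdh1, 6 of 10 regions were gained and 2 lost, and 2 of the gained regions (0.68 and 1.58) were not called without PB3-ERI-R replicate 1, which leaves 4. The region chr8:106610991-106611281 inside that gene had 0.241 and 0.333 CPM against 23.4 and 18 CPM (6.15 ± 0.43, adjusted p = 1.4e-08), and chr8:106588634-106589071, 14279 bp outside it, had 15 and 8.72 CPM against 1.67 and 1.88 CPM (-2.74 ± 0.42, adjusted p = 3.39e-05). Of 7 regions of Zeb1, on chromosome 18, 5 were lost and 1 was gained (2.13 ± 0.26). Without PB3-Parental replicate 2, 2 of the lost regions (-0.68 and -0.71) were not called, which leaves 3. The one with the largest loss, inside the gene, had 45.5 and 46.9 CPM against 10.7 and 5.76 CPM (-2.47 ± 0.23, adjusted p = 2.21e-07).

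**Figure D2:**
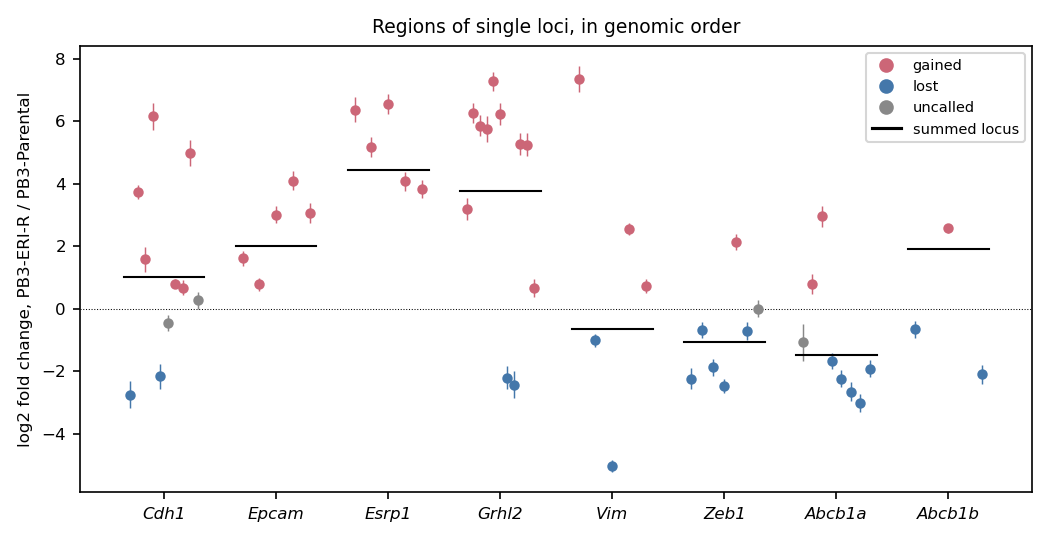
Log2 fold change (± SE) of each region of 8 loci in genomic order, with the summed locus as a black line. Red regions were gained, blue lost and grey uncalled. All regions of Epcam and Esrp1 lie above 0, while Vim runs from -5.02 to 7.35 and Abcb1a from -3.01 to 2.96.

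Where a region lies in a gene went with its direction. Of 10344 regions within 1 kb of a RefSeq start site 44.4% were gained and 8.89% lost, while 22784 regions elsewhere inside genes were gained in 32.2% and lost in 44.5% of cases. Regions outside genes but within 50 kb were gained and lost in 35.3% and 38.4%, and those beyond 50 kb in 33.6% and 51.2%. The surplus of gained start-site regions depended on the scaling: 4589 were gained and 920 lost with TMM, 3470 and 944 with window offsets, 2106 and 1946 with library totals alone, and 1970 and 2054 with upper-quartile scaling. The share of lost start-site regions was below that of the other classes under all 6 scalings. The start-site table has no entry for chromosome 18 or for Cdh1, Esrp1, Grhl2 and Prss8, among others, so their promoters were not classed here.

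**Figure D3:**
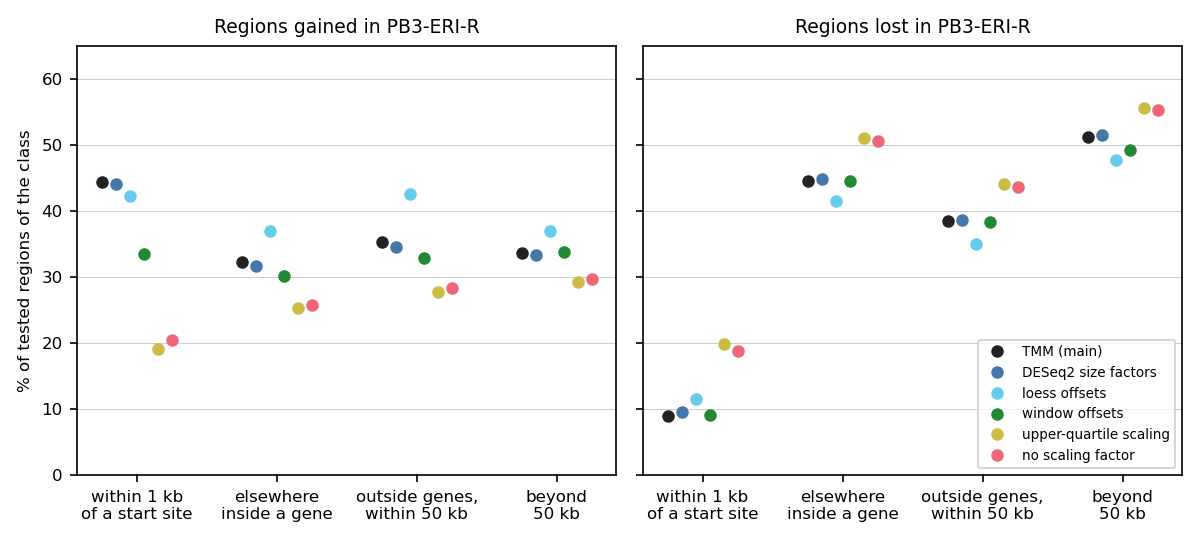
Share of tested regions gained (left) and lost (right) in PB3-ERI-R by position, in percent, under 6 scalings. With TMM 44.4% of start-site regions are gained and 8.89% lost. The gained share of that class moves with the scaling, and its lost share stays under that of the other 3 classes.

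The letters of AP-1 stood more often in promoters that were lost than in those gained, as shares with no test. Of 21237 promoter windows of 300 bases, 10558 overlapped a region, and 16 motifs were searched on both strands. TGANTCA, the letters bound by AP-1 (Fos and Jun proteins), stood in 15.1% of windows whose region was lost, in 3.98% of those gained, in 4.88% of those uncalled and in 6.99% of all windows. Among regions changed by more than 2-fold the shares were 23.9% of lost and 5.98% of gained windows, and with window offsets 16.2% and 4.28%. CACCTG stood in 21.4% of gained, 15.2% of lost and 13.3% of uncalled windows, against 19.7% of all windows, and in 28.7% and 14% of those gained and lost by more than 2-fold. The grainyhead letters AACCNGTT were rare, in 2.04% of gained and 1.7% of lost windows. The median GC content was 62% in gained, 60% in lost and 62.3% in uncalled windows. Among changes of more than 2-fold it was 61.3% in gained and 57.7% in lost windows. Whether base composition goes with the motif shares was not tested.

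Signalling loci moved in both directions. Of 36 TGF-beta and BMP pathway loci 16 were gained and 8 lost, and 10 and 9 with window offsets. Grem1, a secreted BMP antagonist, had 26.6 and 41.1 CPM in PB3-Parental and 1.88 and 1.52 CPM in PB3-ERI-R (-4.30 ± 0.42, adjusted p = 7.67e-06), while Fst, follistatin, was gained by 1.29 ± 0.14. Of the receptors and Smad proteins, Bmpr2 was gained (0.93 ± 0.10), Bmpr1b (-1.47 ± 0.18) and Smad3 (-0.75 ± 0.15) were lost, and Tgfbr1 (0.03) and Tgfbr2 (0.16) were uncalled, the first called lost with window offsets (-0.26). Smurf1, gained by 1.81, stood at -0.08 with window offsets.

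In the Wnt pathway 18 of 41 loci were gained and 10 lost. Wnt2 had 67.9 and 70.3 CPM in PB3-Parental and 2.32 and 4.88 CPM in PB3-ERI-R (-4.30 ± 0.26, adjusted p = 3.23e-07). Wnt10b had 47.5 and 38.1 CPM against 5.1 and 5.85 CPM (-2.97 ± 0.20, adjusted p = 7.15e-07), and the secreted inhibitor Dkk2 had 77.6 and 80.4 CPM against 8.31 and 8.45 CPM (-3.24 ± 0.17, adjusted p = 1.67e-07). Wnt5a was lost too (-4.23 ± 0.43, with -5.65 and -3.42 without PB3-ERI-R replicate 2 and replicate 1), whereas Wnt5b was gained (1.47 ± 0.17). Rnf43, a ligase that removes Frizzled receptors, had 6.37 and 12.3 CPM against 101 and 87.2 CPM (3.34 ± 0.27, adjusted p = 1.95e-06). The R-spondins Rspo1 (4.02 ± 0.39) and Rspo3 (2.77 ± 0.21), their receptor Lgr4 (1.30 ± 0.11), Fzd7 (1.47 ± 0.14) and the transcription factors Tcf7l1 (1.54 ± 0.10) and Lef1 (1.73 ± 0.25) were gained.

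Of 44 receptor tyrosine kinase and ligand loci 20 were gained (45.5%) and 18 lost (40.9%), against 27.9% and 30.3% of all loci. Ntrk2, the receptor of brain-derived neurotrophic factor, had 2.51 and 2.1 CPM in PB3-Parental and 206 and 187 CPM in PB3-ERI-R (6.41 ± 0.28, adjusted p = 6.34e-08), with 8 of 8 regions gained. Fgfr2, a receptor whose epithelial isoform depends on Esrp1 and Esrp2, had 8.02 and 9.24 CPM against 119 and 106 CPM (3.70 ± 0.21, adjusted p = 2.2e-07). Igf2 had 0.501 and 0.621 CPM against 28.8 and 23.1 CPM (5.52 ± 0.33, adjusted p = 2.99e-07). On chromosome 5 Pdgfa, a growth factor, was gained by 2.25 and Ephb4 by 2.56, or by 1.45 and 1.76 with window offsets.

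Fgf5 was lost, from 39.2 and 40.1 CPM to 1.34 and 2.82 CPM (-4.29 ± 0.23, adjusted p = 1.74e-07). So were the collagen receptor Ddr2, from 88.5 and 49.4 CPM to 3.67 and 4.66 CPM (-4.06 ± 0.33), Ephb2 (-1.99 ± 0.17), Igf1 (-1.76 ± 0.15) and Pdgfc (-1.52 ± 0.13). Erbb2 (0.88 ± 0.13) and Erbb3 (1.07 ± 0.13) were gained. Egfr had 229 and 246 CPM against 237 and 200 CPM and was uncalled (-0.12 ± 0.11), but gained by 0.89 with window offsets.

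Hippo loci gave 7 gained and 6 lost of 21. Stk4, the Mst1 kinase, was gained by 1.80 ± 0.14, Ajuba lost by 0.94 and the Yap target Ankrd1 by 1.10 on the log2 scale, and Yap1 itself was uncalled (-0.18), or lost with window offsets (-0.46). Ankrd1 stood at -0.45 there. Of 17 Notch loci 7 were gained and 2 lost, and 4 and 3 with window offsets. Dll1 (0.86 ± 0.10, or 1.47 with window offsets) and Notch1 (0.82 ± 0.14) were gained under both, and Lfng on chromosome 5 was gained by 1.33 but lost with window offsets (-0.56).

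Developmental regulators gave some of the clearest switches. Of 13 tested Hox loci 8 were lost (61.5%) and 1 gained (7.69%), against 30.3% and 27.9% of all loci. The gained locus, Hoxa2, had 0.644 and 0.621 CPM in PB3-Parental and 22.5 and 20.4 CPM in PB3-ERI-R (5.06 ± 0.33, adjusted p = 4.83e-07), next to Hoxa3, which was lost, from 116 and 116 CPM to 52.5 and 53.3 CPM (-1.13 ± 0.10, adjusted p = 5.13e-06). Among 33 Sox, Pax, Fox, Gata and Tbx loci 15 were gained and 14 lost. Sox6 (2.18 ± 0.10) and Sox13 (2.23 ± 0.14) were gained. Gata6 had 150 and 124 CPM against 15.6 and 12.9 CPM (-3.26 ± 0.20, adjusted p = 3.43e-07), with 5 of 5 regions lost, and Foxl2 had 84.5 and 76.6 CPM against 13.3 and 13 CPM (-2.61 ± 0.13, adjusted p = 1.38e-07).

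Among 42 AP-1, Runx, Stat and related loci 9 were gained and 14 lost. Stat4, a transcription factor best known from lymphocytes, had 13.5 and 11.9 CPM in PB3-Parental and 258 and 227 CPM in PB3-ERI-R (4.25 ± 0.14, adjusted p = 3.05e-08). Runx2, a factor of bone and of invasive tumour cells, had 349 and 358 CPM against 180 and 164 CPM (-1.04 ± 0.10, adjusted p = 1.01e-05), with 13 of 19 regions lost. Of genes whose proteins bind AP-1 or related sites, Batf3 (-2.26 ± 0.25), Batf (-1.80 ± 0.22) and Bach1 (-1.14 ± 0.10) were lost. Jun (0.15), Fos (0.40), Junb (-0.09) and Jund (-0.02) were uncalled, though with window offsets Jun was gained (0.66) and Jund lost (-0.30). Mafk was gained by 1.43, or by 0.63 with window offsets, and Cebpa by 1.51 ± 0.17.

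Of 38 loci of drug efflux and detoxification 17 were lost and 12 gained, and 19 and 10 with window offsets. The P-glycoprotein genes, which pump out taxanes, vinca alkaloids and eribulin, moved apart. Abcb1a had 108 and 118 CPM in PB3-Parental and 33.5 and 48.3 CPM in PB3-ERI-R, and its neighbour Abcb1b 57.9 and 56.2 CPM against 216 and 214 CPM. At the Abcb1b start, chr5:8797823-8798768 had 36.7 and 36.5 CPM against 219 and 214 CPM (2.57 ± 0.13, adjusted p = 1.88e-09, and 1.06 with window offsets). The other 2 regions of Abcb1b were lost, but 1 of them (-0.66) was not called when any 1 of the 4 libraries was left out. Of 8 Abcb1a regions 5 were lost, by 1.67 to 3.01 on the log2 scale, and 2 gained, the weaker of which (0.78) was uncalled with window offsets and without PB3-Parental replicate 1 or PB3-ERI-R replicate 2. The cluster lies in a stretch with a median change of 1.51, and with window offsets the summed loci stood at -2.98 for Abcb1a and 0.41 for Abcb1b.

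Other pumps were lost: Abcc1, the multidrug resistance protein Mrp1, had 145 and 161 CPM in PB3-Parental and 67.8 and 67.1 CPM in PB3-ERI-R (-1.18 ± 0.13, adjusted p = 2.01e-05), and Abcg2, the breast cancer resistance protein, had 46.5 and 52.2 CPM against 20.7 and 22.6 CPM (-1.19 ± 0.14, adjusted p = 3.77e-05). The prostaglandin carrier Slco2a1 was lost too (-1.45 ± 0.13). Nqo1, a quinone reductase under the oxidant-sensing factor Nrf2, was gained, from 16.1 and 15.6 CPM to 79.3 and 67.7 CPM (2.21 ± 0.15, adjusted p = 6.18e-07), as was the anion carrier Slco1a5 (2.08 ± 0.19, or 3.14 with window offsets). The cytochrome P450 locus Cyp2j6 was lost (-3.16 ± 0.29).

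Tubulin is the target of the drug. Of 52 tubulin and microtubule-associated loci 13 were gained and 15 lost, and 12 and 23 with window offsets. Tubb3, the neuronal beta tubulin often discussed in drug resistance, had 24.6 and 25.8 CPM in PB3-Parental and 11 and 10.9 CPM in PB3-ERI-R (-1.20 ± 0.18, adjusted p = 0.00017). Tubb5 (-0.59) and Tuba1b (-0.48) were lost by less, Tuba4a was gained (0.80 ± 0.12), and Tuba1a (-0.01), Tubb4b (-0.06, lost with window offsets at -0.25) and Tubb6 (0.04) were uncalled. Tubb1, the platelet beta tubulin, was lost from 7.02 and 7.92 CPM to 0.179 and 0.542 CPM (-4.40 ± 0.41, with -5.30 and -3.75 without PB3-ERI-R replicate 2 and replicate 1).

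Among proteins that bind microtubules, Map2 had 82.1 and 89.8 CPM in PB3-Parental and 213 and 211 CPM in PB3-ERI-R (1.30 ± 0.09, adjusted p = 9.64e-07) and the tubulin cofactor Tbcd was gained (1.54 ± 0.11). Map1s was lost (-1.34 ± 0.13), and Mapt, the tau protein, was uncalled (-0.31), or lost with window offsets (-0.46). Of 37 kinesin loci, motors that walk on microtubules, 11 were gained and 11 lost. Kif18a, which shortens microtubule ends in mitosis, had 44.6 and 42.3 CPM against 148 and 151 CPM (1.78 ± 0.11, adjusted p = 3.34e-07), and Kif12 had 0.501 and 1.01 CPM against 33.5 and 24.9 CPM (5.28 ± 0.41, adjusted p = 1.51e-06). Kif1c (-2.41 ± 0.26), Kif13b (-1.39 ± 0.10) and Kif1b (-1.32 ± 0.09) were lost, the last 2 at -0.58 and -0.62 with window offsets. Kif11, the spindle motor Eg5, was lost by 0.52 on the log2 scale and uncalled with window offsets (0.13).

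Mitotic and spindle checkpoint loci showed 17 gained (44.7%) and 3 lost (7.89%) of 38, and 10 and 3 with window offsets. Over all loci 27.9% were gained and 30.3% lost, and 23.9% and 32.8% with window offsets. Cenpa, Birc5 and Mad1l1, which led that list, stood at 0.22, 0.05 and -0.01 with window offsets and were uncalled there. The proliferation marker Mki67 was gained by 0.55 ± 0.10 and the mitotic transcription factor Foxm1 lost by 1.00 ± 0.19. Of 27 loci of the G1 phase 8 were gained and 9 lost. Apart from Cdkn2a and Cdkn2b, Ccnd2 (-1.22 ± 0.17) and the pocket protein Rbl1 (-1.01 ± 0.12) were lost, Mycn was gained (0.84 ± 0.11), and Trp53 was uncalled (-0.05). E2f7 was lost by 0.98, but uncalled with window offsets (-0.26) and at its gene ends (0.24).

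Apoptosis loci were gained in 11 and lost in 13 of 33 cases. Casp1, the inflammatory caspase, had 4.87 and 5.9 CPM in PB3-Parental and 39.2 and 42.9 CPM in PB3-ERI-R (2.93 ± 0.21, adjusted p = 8.01e-07). Apaf1, the scaffold of the apoptosome, was lost from 3.51 and 3.73 CPM to 0.0894 and 0.217 CPM (-4.54 ± 0.49, with -5.19 and -4.00 without PB3-ERI-R replicate 2 and replicate 1, and -3.85 with window offsets). Cflar (-1.06 ± 0.12) and Bax (-0.81 ± 0.12) were lost too, and Casp9 by 1.06, or by 0.36 with window offsets. Of 38 interferon response loci 10 were gained and 8 lost. Irf8 was lost (-2.03 ± 0.18), and the activator of class II genes Ciita (1.75 ± 0.18) and the nucleic acid sensor Zbp1 (1.92 ± 0.23) were gained.

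Subunits of the SWI/SNF chromatin remodeller were lost in 9 and gained in 5 of 25 cases. Its ATPase Smarca4 had 46.6 and 52.4 CPM in PB3-Parental and 53.9 and 58.3 CPM in PB3-ERI-R and was uncalled (0.18, adjusted p = 0.324). Bicral had 329 and 308 CPM against 148 and 148 CPM (-1.11 ± 0.11, adjusted p = 1.26e-05), and Arid1a was lost by 0.77 ± 0.10 on the log2 scale. Of 32 Polycomb and DNA methylation loci 10 were gained and 6 lost. The neighbours Cbx8 and Cbx2 on distal chromosome 11 were gained by 1.71 and 1.18, and stood at 0.32 and -0.21 with window offsets. Dnmt3b, a methyltransferase, was gained by 0.87 ± 0.12 under both scalings.

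Of 43 adhesion and synapse loci of neurons 25 were lost (58.1%) and 13 gained (30.2%), with a median of -0.71. Only 10 genes of the list had a region in a promoter window, of which 6 were gained and 2 lost by over 2-fold. Of all 10558 promoter windows with a region, 1020 were gained and 314 lost by over 2-fold. Summed over gene-end regions alone, 4 of 11 tested loci of the list were gained and 5 lost. Rbfox1, a splicing factor, had 199 and 196 CPM in PB3-Parental and 9.75 and 11.4 CPM in PB3-ERI-R (-4.23 ± 0.15, adjusted p = 3.78e-08), with 12 of 12 regions lost. Ctnna2, a catenin, had 128 and 113 CPM against 13.7 and 15.2 CPM (-3.07 ± 0.12, adjusted p = 4.76e-08), with 10 of 11 lost. Sdk1, a sidekick adhesion protein on chromosome 5, went the other way, from 1.58 and 1.09 CPM to 93.3 and 77.9 CPM (5.99 ± 0.28, adjusted p = 9.44e-08, or 4.11 with window offsets). Negr1 stood at -3.47 and at -1.04 with window offsets. Pcdh9 was lost by 2.33 and uncalled with window offsets (-0.32).

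Mammary markers of both lineages were more often gained than lost. Of 19 basal loci 10 were gained (52.6%) and 3 lost (15.8%), and of 22 luminal loci 11 were gained (50%) and 5 lost (22.7%). Over all loci 27.9% were gained and 30.3% lost. Igfbp2 had 11 and 7.22 CPM in PB3-Parental and 155 and 145 CPM in PB3-ERI-R (4.04 ± 0.21, adjusted p = 1.52e-07). Lcn2, a secreted iron-siderophore carrier, had 1.86 and 1.09 CPM against 75.8 and 36.2 CPM (5.23 ± 0.43, with 4.61 and 5.69 without PB3-ERI-R replicate 1 and PB3-ERI-R replicate 2), and the milk protein Ltf was gained (2.81 ± 0.30). Procr, a marker of basal stem-like cells, was lost (-2.62 ± 0.26), as were Tnfsf11 (-2.13 ± 0.22) and Esr1 (-0.82 ± 0.11), and Cited1 was gained by 1.74, or 0.71 with window offsets.

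Markers of other cell types moved beside these groups, as values and not as a composition. Of 11 tested fibroblast markers (15 listed) 7 were lost and 0 gained, and their summed CPM was 792 and 716 in PB3-Parental and 462 and 415 in PB3-ERI-R. With window offsets the same numbers were called. The 9 tested macrophage markers (13 listed) gave 3 gained and 5 lost, with 509 and 494 CPM against 391 and 378 CPM, and Cx3cr1 (-2.18 ± 0.13) and Trem2 (-3.19 ± 0.20) among the lost. The 10 endothelial markers (14 listed) gave 4 gained and 4 lost with 516 and 508 CPM against 975 and 873 CPM, and the 7 adipocyte markers (10 listed) 2 and 3 with 285 and 338 CPM against 348 and 304 CPM. The 16 neural markers (20 listed) gave 6 gained and 9 lost with 689 and 654 CPM against 915 and 887 CPM. No defining marker among those tested was at 0 in all 4 libraries, but only loci that passed the low-count filter were tested. The sentence therefore says nothing about markers listed and not tested. The part of other cells in these results was not tested. Of 20 housekeeping loci 3 were gained and 3 lost, with a median of 0.05.

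**Figure D4:**
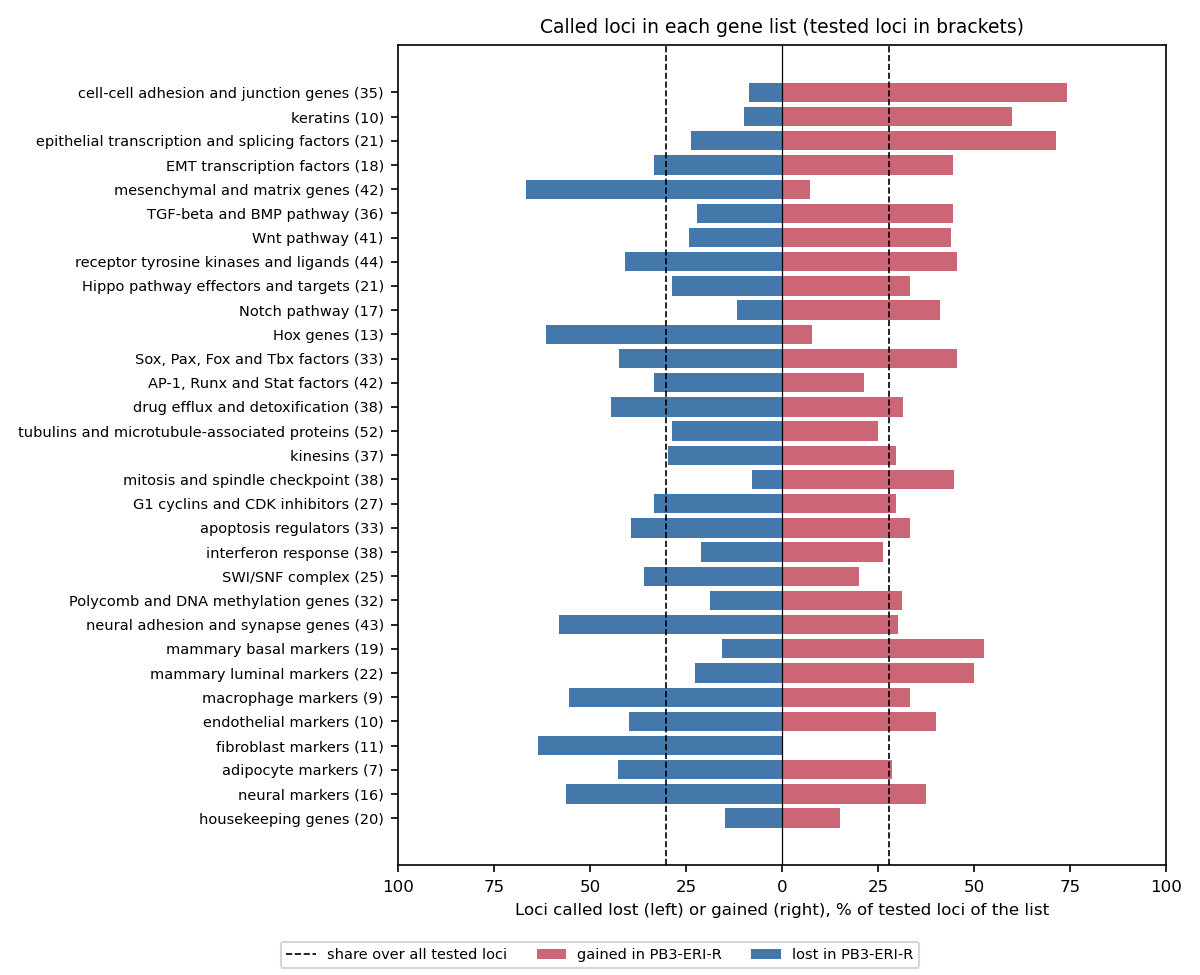
Share of tested loci lost (left) and gained (right) in PB3-ERI-R for 31 gene lists, in percent, with the number tested in brackets. Dashed lines mark the shares over all loci, 30.3% lost and 27.9% gained. Junction genes reach 74.3% gained, and mesenchymal and fibroblast loci over 60% lost.

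Loci were ranked by change if they had an average log2 CPM of at least 4 and over 10 counts in each of the 4 libraries. The largest gains among them belong to loci open in PB3-ERI-R and nearly shut in PB3-Parental. Some loci outside these limits had larger values, such as Cdkn2a, Cdkn2b and Kit. Kit stood at 8.45, with 7.54 and 10.89 without PB3-Parental replicate 1 and replicate 2. Adamts18, a matrix protease, had 1.22 and 0.931 CPM in PB3-Parental and 243 and 217 CPM in PB3-ERI-R (7.72 ± 0.22, adjusted p = 1.58e-08), with 5 of 5 regions gained. Prlr, the prolactin receptor, followed with 6.87, then Ntrk2, Ildr1 (a protein of tricellular junctions), the potassium channel Kcnk1 (6.38), Banf2 (6.37), the proprotein convertase Pcsk5 (6.21), BC016579 (6.11), the metalloreductase Steap4 (6.04, or 4.53 with window offsets) and Frmd7 (6.03). In each of these 10 the lower PB3-ERI-R library was at 60.5 CPM or more and no PB3-Parental library over 4.89 CPM.

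Within the same limits the largest losses were 4930474N05Rik (-5.89), Asb5 (-5.72), Lingo2 (-5.43), Tmem132c (-5.40), Naa11 (-5.38), the neural adhesion gene Ntm (-5.38), the glutamate receptor Grm7 (-5.37), Adam19 (-5.35), Tmem30c (-5.35) and Fam110b (-5.12). Adam19, a metalloprotease, had 74.6 and 66.2 CPM against 1.61 and 1.84 CPM, with 6 of 6 regions lost. With window offsets Asb5 stood at -5.09, Lingo2 at -4.45, Adam19 at -3.61 and Fam110b at -3.23. Without PB3-ERI-R replicate 2 Lingo2 stood at -6.04, Ntm at -6.01, Grm7 at -6.15 and Fam110b at -5.81. All 20 loci of these 2 groups remained called under both alternatives.

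Near gene ends and within the same limits, the regions with the largest gains belonged to Marchf3 (6.79), Steap4 (6.08), Fbxw8 (5.99), AA986860 (5.84) and Trp53i11 (5.64). Those with the largest losses belonged to Susd1 (-5.52), Vim (-5.02), Pcbp3 (-4.78), the syntaxin Stx4a (-4.59) and the neural factor Pou3f2 (-4.48). A gene end is not always a start: the Stx4a region lies 8445 bp from the gene's start site, where another region had 38.6 and 33.1 CPM against 33 and 30.8 CPM and was uncalled (-0.17). The Trp53i11 region lies 1040 bp from the start, where the region was gained by 0.79 ± 0.20, and the Susd1 region lies 122657 bp from the start. The Susd1 region chr4:59315020-59315976 had 89.4 and 93 CPM in PB3-Parental and 1.76 and 2.21 CPM in PB3-ERI-R, and the Trp53i11 region chr2:93185671-93186508 had 2.89 and 1.53 CPM against 112 and 111 CPM.

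The 5 uncalled loci with the highest average were not places without change. Mast4, a kinase locus with 675 and 678 CPM in PB3-Parental and 658 and 592 CPM in PB3-ERI-R (-0.11 ± 0.12, adjusted p = 0.432), held 12 gained and 18 lost regions of 33, of which 9 called regions were not called in at least 1 of the fits without a library. Ctif held 10 gained and 9 lost of 28, Gse1 9 and 8 of 26, the myosin Myh9 5 and 8 of 15, and Ahnak 3 and 6 of 16. At these 4 loci 4, 6, 5 and 3 called regions likewise were not called in at least 1 such fit. The summed log2 changes of the 5 ran from -0.35 to 0.08. With window offsets Mast4 was called lost (-0.30), and Ahnak was called lost in 7 of the other settings (-0.23 to -0.92), with a change of -0.92 at its gene ends.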

How the data were processed

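The authors deposited 1 table of ATAC-seq counts, whole-number read counts of 8 libraries over consensus regions, per the file headers with no normalization. Per the submitters' processing notes, the tools included Bowtie2 2.2.6, MACS2 2.1.1, featureCounts and cutadapt 1.9.1, on mm10 (GRCm38). Whether duplicates were removed or read ends shifted is not given in the sources used here. From the peak lists that the authors deposited, 37619 intervals of PB3-Parental and 30778 of PB3-ERI-R were used as positions only.

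Each of 57417 regions was given to the nearest protein-coding gene of RefSeq (GRCm38.p6) within 50 kb: 48270 were assigned, 33695 of them inside the gene. Gene-end regions, 12395 in all, are those at most 1 kb from either end of a gene. Region and summed locus counts of all 8 libraries were fitted with edgeR 4.0.16 (R 4.3.3; TMM, filterByExpr, quasi-likelihood test, 1 term a line), and the PB3-ERI-R term was set against PB3-Parental. Adjusted p-values (Benjamini-Hochberg) run over all tested features. Changes over 2-fold were tested with glmTreat. The n is 2 libraries a line throughout. The procedure was tested on simulated data.

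The comparison, the 31 gene lists and the list of 34 microRNAs were chosen with earlier results of these data known. Named loci are the 10 gained and 10 lost with the largest change (average log2 CPM of at least 4, over 10 counts in every library), 5 and 5 gene-end regions chosen likewise, up to 4 loci per list by adjusted p, the 5 uncalled loci with the highest average, and 15 fixed genes. Others were chosen after their values were seen. Alternatives were other scalings, window offsets (10 Mb stretches with at least 20 regions), DESeq2 1.42.0, low-count filters, a fit of 4 libraries, a replicate block, other region assignments and leaving out each library. Deviations of same-numbered PB3-ERI-R and PB3-Parental libraries hardly correlated (0.0729), a check made for this pair of lines only. Between PB3-Parental and the paclitaxel-resistant line, same-numbered libraries had an r of 0.9793 (replicate 1) and 0.9678 (replicate 2). Differently numbered libraries of these lines had 0.9662 and 0.9595. Against the vinorelbine-resistant line the same-numbered values were 0.9789 and 0.9581, and the others 0.9666 and 0.9477. The PB3-Parental replicates had an r of 0.9681 with each other. Whether the numbers pair samples across the lines is not settled, so the replicate block is given as an alternative. Some loci are not reported here.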

Additional observations from a re-analysis of the deposited data

How the results depend on the processing

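Of the counts of changed regions, loci, gene-end regions and regions past 2-fold, most settings kept each within 1.5 times. Exceptions with 10 counts required in each library were 27851 regions changed, 13389 gained and 3035 start-site regions gained, where fewer regions are tested. Loci summed over gene-end regions alone gave 4359 changed, 2208 gained and 2151 lost, again among fewer loci. Scaling by library totals gave 2555 gene-end regions gained and 2515 lost, and 2106 and 1946 start-site regions. Upper-quartile scaling gave 2397 and 2641, and 1970 and 2054. Within 2 kb of a gene end 2085 regions were lost. Over all regions, 14862 were gained and 25149 lost with library totals, 14508 and 25441 with upper quartiles, and 22554 and 20343 with loess offsets. The cause of these shifts was not tested. With the replicate block 22589 regions were gained and 22625 lost, and 4947 and 5261 loci. Leaving out 1 library gave 37899 to 39139 regions changed (17827 to 18672 gained, 20072 to 20705 lost) and 7483 to 7886 loci (3544 to 3890 gained, 3899 to 4078 lost). It gave 26394 to 27949 regions past 2-fold (11139 to 11726 and 15255 to 16223), 5391 to 5689 gene-end regions (4122 to 4467 and 1187 to 1269), and 3450 to 3780 start-site regions gained and 772 to 855 lost. Of 152 named loci, window offsets turned Actb (-1.23), Cbx2 (-0.21), Lfng (-0.56), Mad1l1 (-0.01), Pgk1 (-0.17), Rbbp7 (-0.52) and Smurf1 (-0.08), and ended 6 further calls. Gene-end regions alone turned E2f7 (0.24), Hoxa3 (0.15), Jag1 (-0.22), Sox6 (-0.27), Stk4 (-0.04) and Fn1 (-0.40), and ended 10. A limit of 10 kb turned Fn1 (-0.33) and ended 3. Of 569 named or listed loci that were called, 117 were not called without 1 of the libraries, and 26 moved by over 1.5 times. Depth limits loci near 3 counts, where a fold change rests on few reads.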

Other observations

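All 3 regions on the Y chromosome had far more counts in PB3-ERI-R than in PB3-Parental. The region starting at 90718623 had 10 and 5 counts in PB3-Parental and 177 and 196 in PB3-ERI-R (log2 change 5.31, adjusted p = 2.85e-08 by edgeR's quasi-likelihood test). The region starting at 90723652 had 10 and 7 against 181 and 110 counts (4.74, adjusted p = 3.04e-08), and the one starting at 90744304 had 67 and 47 against 891 and 871 counts (4.64, adjusted p = 1.35e-09). The libraries of the paclitaxel-resistant line had 12 and 7, 14 and 15, and 53 and 53 counts there, and those of the vinorelbine-resistant line 16 and 26, 23 and 15, and 85 and 81. At these regions, as at Cdkn2a and Cdkn2b, the 2 PB3-ERI-R libraries were high and the 6 libraries of the other lines low or at 0.

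Regions at or under 3 counts over both libraries of a line numbered 384 in PB3-Parental and 610 in PB3-ERI-R. Fold changes of such regions rest on the prior count of the fit and were not ranked.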
